A study of Mus musculus with 16 samples.

Results

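The 38 genes described here act in the G2 phase and in mitosis, and were taken by symbol from a list of such genes. All 38 were found among the 55291 genes of the count table, and all 38 had enough reads to be tested in both fits (17831 genes in the liver fit and 18193 genes with the tumours added). They fall into 8 groups by role, from the cyclins and Cdk1 that start mitosis to the proteins that divide the cell at its end. As background, cells that divide make these messages late in the cycle, when the transcription factor Foxm1 and the MuvB protein complexes act on their promoters, and resting cells hold the same promoters silent. Cyclin B with Cdk1 drives entry into mitosis, the spindle checkpoint kinases hold the cell until every chromosome is attached, and the anaphase-promoting complex then destroys cyclin B. Most hepatocytes of an adult liver rest outside the cell cycle and can enter it again after injury, after loss of tissue or under some nuclear receptor agonists.

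The RNA came from whole mouse livers and from liver tumours, in 8 groups of 2 libraries that the series' design gives as biological replicates. The tumour genotype is Arid1a KO/BcatEXON, without a label of time or treatment. The groups at 30 days were agonist-treated Arid1a KO, agonist-treated WT, DMSO-treated Arid1a KO and DMSO-treated WT livers, with days counted from tamoxifen. The groups at 9 days were Arid1a/b DKO, Arid1a KO and WT livers, all DMSO-treated. The products of Arid1a and Arid1b bind DNA within BAF, a complex that moves nucleosomes, and each BAF complex holds one of them. The agonist is written as one of NR1L3, which is not a receptor symbol, so its target is not named here. The titles of the agonist-treated WT livers say 9 days while their time field and library names say 30 days, and they were taken as 30-day livers. The labels state neither the driver of the recombination nor the tumours' age, though the library names of the WT livers begin with ALB. Library names of the agonist-treated livers carry TC. The cell type field says hepatocytes although the tissue was whole liver. Markers of other liver cells were present beside those of hepatocytes: 14 macrophage markers summed to 230.3 to 3709 CPM (counts scaled to the size of the library) per library, and 12 hepatocyte markers to 25440 to 60060 CPM. In such bulk RNA, fewer dividing cells and less of these messages in each dividing cell cannot be told apart.

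Total counts ran from 7.57 to 47.8 M per library, and replicate 1 was the shallower library of every group. A floor of 3 counts corresponded to 0.0481 to 0.363 CPM, counting error only. The whole-gene Arid1a level at 9 days was 90.6 and 103 CPM in Arid1a/b DKO livers and 87.5 and 90.1 CPM in Arid1a KO livers, above 72.2 and 77.04 CPM in WT livers. At 30 days it overlapped between genotypes, at 82.4 and 68.7 CPM in agonist-treated Arid1a KO livers, 94.2 and 75.4 CPM in agonist-treated WT livers, 95.3 and 76.5 CPM in Arid1a KO livers and 105 and 86.4 CPM in WT livers, and the tumours had the lowest values of all libraries, 55.9 and 63.7 CPM. A whole-gene count includes exons outside a deleted part, so it does not check the labels. For Arid1b the level was 24.5 and 25.7 CPM in Arid1a/b DKO livers, against 38.05 and 52.8 CPM in WT livers. The 30-day DMSO-treated livers differed within their groups: Cyp2b10, a drug-metabolising enzyme, had 324 and 8.94 CPM in replicates 1 and 2 of Arid1a KO livers and 354 and 0.499 CPM in those of WT livers. The clock gene Arntl split the same libraries, at 60.3 and 1.57 CPM in Arid1a KO livers and 18.99 and 1.32 CPM in WT livers. Arntl also split the agonist-treated livers, at 29.6 and 2.55 CPM in Arid1a KO and 10.8 and 0.84 CPM in WT livers. Most results that rest on the DMSO-treated livers are therefore given with both replicates and with replicate 2 alone of those livers. Agonist-treated groups kept both replicates there. The agonist effect in WT livers, and the differences between genotypes in the agonist and time effects, are given with both replicates only.

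The 38 messages moved largely as a block across the 8 groups. Their summed level was 157.9 and 350 CPM in the tumours, 451.9 and 294.8 CPM in agonist-treated Arid1a KO livers, 40.98 and 40.82 CPM in agonist-treated WT livers, 74.73 and 112.9 CPM in Arid1a KO livers at 30 days and 39.99 and 39.82 CPM in WT livers at 30 days. At 9 days it was 337 and 897 CPM in Arid1a/b DKO livers, 194.2 and 255.7 CPM in Arid1a KO livers and 94.28 and 228 CPM in WT livers. The sums of the 4 WT libraries of 30 days, with or without agonist, all lay between 39.8 and 41.0 CPM, below each of the other 12 libraries. Arid1a/b DKO livers had the highest group mean for 36 of the 38 genes. The other two were Cdc20, which activates the anaphase-promoting complex and was highest in agonist-treated Arid1a KO livers, and Ncapg, a condensin subunit that was highest in Arid1a KO livers at 9 days. The lowest group mean was that of WT livers at 30 days for 21 genes and that of agonist-treated WT livers for 17 genes. In 6 of the 8 groups most of the genes also differed between replicates in 1 direction. Replicate 2 of the Arid1a/b DKO livers exceeded replicate 1 for 38 of 38 genes, with a median ratio of 2.62, a lowest ratio of 1.29 for Spc25 and a highest of 4.43 for Cdc20. The same ratio had a median of 2.35 in WT livers at 9 days, 2.32 in the tumours, 1.54 in Arid1a KO livers at 30 days, 1.385 in those at 9 days and 0.625 in agonist-treated Arid1a KO livers. The WT livers of 30 days had no such direction: replicate 2 was higher for 18 genes and replicate 1 for 20 with the agonist, and for 16 and 22 genes without it. One library, replicate 2 of the Arid1a/b DKO livers, held the highest value of 37 of the 38 genes.

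**Figure D1:**
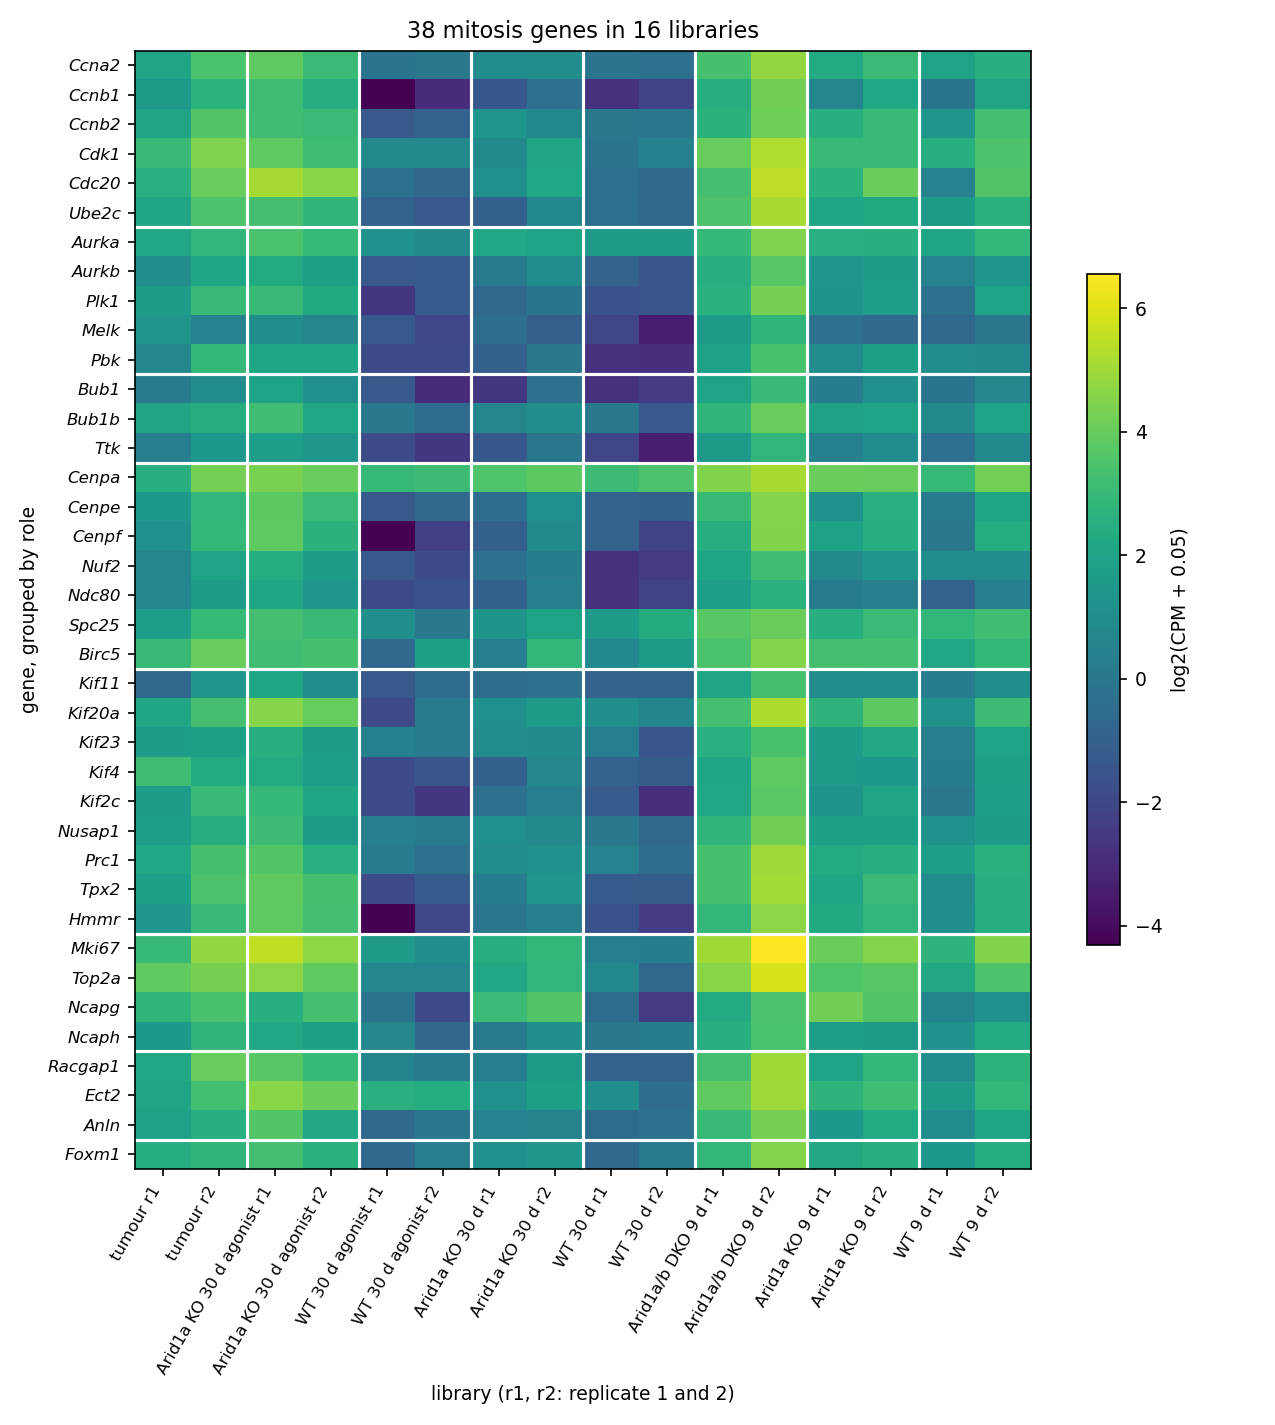
Level of each of the 38 genes (rows, ordered by role) in each of the 16 libraries (columns, replicates 1 and 2 of each group), as log2(CPM + 0.05). The Arid1a/b DKO and agonist-treated Arid1a KO columns are bright from top to bottom, the 4 WT columns of 30 days are dark, and the Ncapg row is bright in every column without Arid1a.

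Per kilobase of exon, Cdc20 and Ccnb2 were among the 3 highest genes at 9 days in Arid1a/b DKO and in WT livers alike, and other genes were highest in WT livers at 30 days. In Arid1a/b DKO livers the highest mean levels per length were 14.5 ± 12.96 CPM per kilobase for Cdc20, 8.89 ± 6.46 CPM per kilobase for Ube2c and 7.85 ± 5.29 CPM per kilobase for Ccnb2 (SD, n = 2). In WT livers at 9 days they were 4.02 ± 3.31 CPM per kilobase for Ccnb2, 3.64 ± 4.11 CPM per kilobase for Cdc20 and 2.62 ± 0.452 CPM per kilobase for Spc25 (SD, n = 2). In WT livers at 30 days they were 1.72 ± 0.299 CPM per kilobase for the centromeric histone gene Cenpa, 1.28 ± 0.489 CPM per kilobase for the kinetochore gene Spc25 and 1.16 ± 0.0855 CPM per kilobase for the centrosome kinase gene Aurka (SD, n = 2). Within the livers of 9 days these orders do not differ beyond the spread, since the SD of Cdc20 was close to or above its mean.

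The promoters of these genes share short sequence elements, and 7 windows are shown: those of Ccnb2, Cdk1 and Ube2c among the drivers of mitosis, of the spindle gene Hmmr, and of the chromosome structure genes Top2a, Mki67 and Ncapg, the last with levels that followed another pattern. RefSeq gives the bases from 250 before to 50 after each gene's start on build GRCm38.p6, and 32 of the 38 genes were matched there. Ccna2, Aurkb, Pbk, Kif20a, Tpx2 and Foxm1 have no entry in that table. Each window is written 5′ to 3′ on the strand of its gene, and capitals mark TTTGAA (the cell cycle homology element bound by MuvB complexes) and CCAAT (the box bound by NF-Y), read on both strands, so that TTCAAA and ATTGG are also in capitals. Ccnb2 lies on the minus strand (chr9:70421505-70421804), Cdk1 on the minus strand (chr10:69352863-69353162) and Ube2c on the plus strand (chr2:164769679-164769978). Hmmr lies on the minus strand (chr11:40733388-40733687), Top2a on the minus strand (chr11:99024140-99024439), Mki67 on the minus strand (chr7:135716330-135716629) and Ncapg on the plus strand (chr5:45669675-45669974).
Ccnb2: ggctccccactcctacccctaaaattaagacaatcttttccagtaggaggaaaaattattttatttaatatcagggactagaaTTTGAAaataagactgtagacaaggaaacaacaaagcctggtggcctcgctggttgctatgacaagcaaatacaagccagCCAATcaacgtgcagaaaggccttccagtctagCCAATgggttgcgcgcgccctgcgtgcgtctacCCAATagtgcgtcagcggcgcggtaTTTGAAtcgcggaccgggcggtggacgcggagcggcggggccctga
Cdk1: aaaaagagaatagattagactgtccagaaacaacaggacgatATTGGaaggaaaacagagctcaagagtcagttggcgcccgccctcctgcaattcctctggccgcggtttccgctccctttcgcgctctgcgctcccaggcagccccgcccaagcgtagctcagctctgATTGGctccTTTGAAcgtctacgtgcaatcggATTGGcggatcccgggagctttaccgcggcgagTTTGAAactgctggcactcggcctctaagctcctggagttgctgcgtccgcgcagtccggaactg
Ube2c: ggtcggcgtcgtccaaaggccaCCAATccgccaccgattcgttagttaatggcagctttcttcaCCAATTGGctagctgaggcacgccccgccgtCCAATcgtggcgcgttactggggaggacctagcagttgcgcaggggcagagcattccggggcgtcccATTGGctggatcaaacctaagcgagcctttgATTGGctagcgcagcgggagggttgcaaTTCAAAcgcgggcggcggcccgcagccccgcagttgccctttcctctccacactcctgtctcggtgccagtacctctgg
Hmmr: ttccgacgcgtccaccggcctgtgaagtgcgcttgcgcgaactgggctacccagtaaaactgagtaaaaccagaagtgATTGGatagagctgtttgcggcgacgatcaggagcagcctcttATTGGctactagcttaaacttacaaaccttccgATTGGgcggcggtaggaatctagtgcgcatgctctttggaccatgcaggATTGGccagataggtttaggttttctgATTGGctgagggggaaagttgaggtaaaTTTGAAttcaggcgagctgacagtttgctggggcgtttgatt
Top2a: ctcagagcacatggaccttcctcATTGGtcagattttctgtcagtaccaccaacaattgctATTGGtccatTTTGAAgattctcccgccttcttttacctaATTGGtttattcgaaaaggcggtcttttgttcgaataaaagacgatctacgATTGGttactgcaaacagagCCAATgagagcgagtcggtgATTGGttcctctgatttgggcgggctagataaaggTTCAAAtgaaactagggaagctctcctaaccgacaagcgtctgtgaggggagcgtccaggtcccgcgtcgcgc
Mki67: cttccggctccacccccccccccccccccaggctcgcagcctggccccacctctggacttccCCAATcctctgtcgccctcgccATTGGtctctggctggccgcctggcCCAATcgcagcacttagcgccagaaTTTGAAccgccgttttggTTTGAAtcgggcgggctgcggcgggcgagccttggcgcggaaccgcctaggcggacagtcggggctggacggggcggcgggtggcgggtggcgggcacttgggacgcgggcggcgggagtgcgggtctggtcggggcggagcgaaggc
Ncapg: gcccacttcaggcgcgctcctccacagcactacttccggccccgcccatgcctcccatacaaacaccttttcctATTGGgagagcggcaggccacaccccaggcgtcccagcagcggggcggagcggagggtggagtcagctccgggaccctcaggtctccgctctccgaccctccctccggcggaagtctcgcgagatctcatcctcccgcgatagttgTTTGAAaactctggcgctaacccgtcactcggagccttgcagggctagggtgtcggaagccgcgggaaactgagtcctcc

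TTTGAA on either strand was present in 24 of the 32 windows (75.0%), against 18.1% of the windows of 27018 genes. CCAAT was likewise present in 24 of 32 windows (75.0%), against 37.9% of all genes, and at least 2 CCAAT boxes in 16 of 32 windows, against 12.2% of all genes. In 71 windows of other mitosis genes TTTGAA was present in 52.1%, CCAAT in 69.0% and at least 2 CCAAT boxes in 43.7%. In 38 windows of S phase genes these shares were 18.4%, 57.9% and 36.8%, so CCAAT was not particular to the 38 genes. Both elements occurred together in 65.6% of the 32 windows and in 7.1% of all genes. They did so in 39.4% of windows of other mitosis genes and 10.5% of those of S phase genes. TTTGAA lay within 50 bases of the start in 22 of 32 windows (68.8%), against 4.92% of all genes, 43.7% of 71 windows of other mitosis genes and 10.5% of 38 windows of S phase genes. In 7 windows, those of Aurka, Ccnb1, Ccnb2, Cdk1, Hmmr, Spc25 and Ube2c, neighbouring CCAAT boxes in the same orientation started 31 to 33 bases apart (21.9%), against 0.862% of all genes. Such pairs were found in 2.82% of windows of other mitosis genes and 2.63% of those of S phase genes. That spacing was chosen after the sequences were seen. In the Ccnb2 window the boxes start at -87, -54 and -21 from the gene's start and TTTGAA at 5. In the Cdk1 window, boxes on the other strand start at -80 and -48 and TTTGAA at -15. The Ncapg window holds 1 TTTGAA at -30 and 1 CCAAT on the other strand at -176, and the Mki67 window holds 2 TTTGAA at -116 and -98. Nuf2, Nusap1, Ncaph, Melk and Birc5 have neither set of letters in the window. These matches describe the letters of the windows. They were not tested as sites.

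The comparison of Arid1a/b DKO with WT livers at 9 days addresses what loss of both subunits does to the cell cycle messages. Calls are genes with adjusted p below 0.05 in edgeR's quasi-likelihood test, with Benjamini-Hochberg adjustment over all 17831 genes tested. Of the 38 genes, 28 rose and 0 fell in Arid1a/b DKO livers, where 12.6% of all genes tested were called higher and 13.8% lower. The median log2 fold change of the 38 genes was 2.08, with 38 of 38 positive, and that of all genes tested was close to 0. In 36 of 38 genes both Arid1a/b DKO libraries lay above both WT libraries, which was so for 33.5% of all genes tested. The rise covered all 8 role groups: 3 of 6 cyclins, Cdk1 and anaphase-promoting complex partners, 5 of 5 mitotic kinases, 3 of 3 checkpoint kinases, 4 of 7 centromere and kinetochore genes, 6 of 9 spindle genes, 3 of 4 chromosome structure genes, 3 of 3 cytokinesis genes and Foxm1.

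Among the drivers of mitotic entry, Cdk1, the kinase that B-type cyclins activate, had 16.3 and 38.3 CPM in Arid1a/b DKO livers, 8 and 8.22 CPM in Arid1a KO livers and 5.79 and 11.5 CPM in WT livers. Ccna2, the cyclin of late S phase and G2, had 10.4 and 27.3 CPM in Arid1a/b DKO livers, 4.89 and 8.503 CPM in Arid1a KO livers and 3.78 and 5.54 CPM in WT livers. For both genes each Arid1a/b DKO library lay above all 4 other libraries of that day, with log2 fold change 1.65, SE 0.49, adjusted p 0.031 for Cdk1 and log2 fold change 2.01, SE 0.47, adjusted p 0.0109 for Ccna2 against WT. Ccnb1, a B-type cyclin, had 5.43 and 18.3 CPM in Arid1a/b DKO livers, 1.56 and 4.49 CPM in Arid1a KO livers and 0.885 and 4.08 CPM in WT livers. Its log2 fold change against WT was 2.21 (SE 0.77, adjusted p 0.0559), which missed the threshold although the libraries did not overlap.

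Cdc20 had 9.99 and 44.2 CPM in Arid1a/b DKO livers, 6.07 and 16.8 CPM in Arid1a KO livers and 1.37 and 12.2 CPM in WT livers. The lower Arid1a/b DKO library lay below the higher Arid1a KO and WT libraries, and the log2 fold change against WT was 1.96 (SE 0.87, adjusted p 0.119). Ube2c, the ubiquitin-conjugating enzyme of the anaphase-promoting complex, had 11.2 and 34.98 CPM in Arid1a/b DKO livers, 4.15 and 4.85 CPM in Arid1a KO livers and 2.98 and 6.14 CPM in WT livers. It rose against WT (log2 fold change 2.32, SE 0.59, adjusted p 0.0157) with no overlap. Of the Ube2c exon bases, 22.8% also belong to Tnnc2 on the other strand, and reads there cannot be told apart because the strand setting of the counting is not given in the sources used here. Ccnb2, the other B-type cyclin, overlapped between the groups and had a log2 fold change of 0.94 (SE 0.58, adjusted p 0.249).

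The kinases moved together. Plk1, which acts in centrosome maturation and mitotic entry, had 6.05 and 20.1 CPM in Arid1a/b DKO livers, 2.44 and 3.41 CPM in Arid1a KO livers and 0.804 and 3.95 CPM in WT livers. Aurkb, the kinase of the chromosomal passenger complex, had 5.52 and 13.02 CPM in Arid1a/b DKO livers, 2.52 and 3.21 CPM in Arid1a KO livers and 1.37 and 2.55 CPM in WT livers. In both genes the lower Arid1a/b DKO library was above every Arid1a KO and WT library, and both rose against WT, by 2.41 (SE 0.71, adjusted p 0.0293) for Plk1 and by 2.22 (SE 0.49, adjusted p 0.00851) for Aurkb on the log2 scale. Melk, a kinase of dividing cells, had 2.96 and 6.97 CPM in Arid1a/b DKO livers, 0.815 and 0.602 CPM in Arid1a KO livers and 0.563 and 0.955 CPM in WT livers. It had the largest log2 fold change against WT of the 38 genes, 2.66 (SE 0.55, adjusted p 0.00643). Bub1b, a checkpoint kinase, had 6.93 and 16.4 CPM in Arid1a/b DKO livers, 3.63 and 3.89 CPM in Arid1a KO livers and 1.69 and 3.92 CPM in WT livers. It rose against WT as well (log2 fold change 2.03, SE 0.57, adjusted p 0.0246).

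Among kinetochore and spindle genes, the largest called rises were those of Cenpe, a kinetochore motor, at 2.54 (SE 0.73, adjusted p 0.0268) on the log2 scale, and of Tpx2, which activates Aurka on the spindle, at 2.47 (SE 0.64, adjusted p 0.0175). Birc5, a partner of Aurkb in the passenger complex, had 11.2 and 23.1 CPM in Arid1a/b DKO livers, 10.2 and 9.99 CPM in Arid1a KO livers and 4.34 and 7.58 CPM in WT livers, with log2 fold change 1.52, SE 0.74, adjusted p 0.151. Kif20a, a motor of the central spindle, had 9.92 and 37.5 CPM in Arid1a/b DKO livers, 6.59 and 13.8 CPM in Arid1a KO livers and 2.33 and 8.72 CPM in WT livers, with log2 fold change 2.07, SE 0.73, adjusted p 0.0574. Neither gene was called, and 29.3% of the Kif20a exon bases also belong to Cdc23 on the other strand. Spc25 had the smallest log2 fold change of the 38 genes, 0.85 (SE 0.40, adjusted p 0.137).

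Mki67, a coat protein of mitotic chromosomes used as a marker of dividing cells, had 31.7 and 93.7 CPM in Arid1a/b DKO livers, 17.3 and 23.02 CPM in Arid1a KO livers and 6.76 and 22.5 CPM in WT livers. Top2a, which untangles replicated DNA, had 24.3 and 58.9 CPM in Arid1a/b DKO livers, 11.8 and 13.3 CPM in Arid1a KO livers and 4.67 and 11.5 CPM in WT livers. Both Arid1a/b DKO libraries were highest for both genes, and both rose against WT, by 2.08 (SE 0.58, adjusted p 0.0232) for Mki67 and 2.35 (SE 0.54, adjusted p 0.0104) for Top2a on the log2 scale. Racgap1 and Ect2 place the contractile ring in cytokinesis, and against WT Racgap1 rose by 2.29 (SE 0.67, adjusted p 0.0285) and Ect2 by 2.15 (SE 0.55, adjusted p 0.0168) on that scale. Foxm1 had 7.22 and 23.3 CPM in Arid1a/b DKO livers, 4.67 and 5.54 CPM in Arid1a KO livers and 2.73 and 5.19 CPM in WT livers (log2 fold change 1.93, SE 0.55, adjusted p 0.0263 against WT).

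Against Arid1a KO livers of the same day, 13 of the 38 genes rose in Arid1a/b DKO livers and 0 fell, where 9.92% of all genes tested were called higher and 12.1% lower. Among the 38 genes, the median log2 fold change was 1.64, with 37 of 38 positive. In 33 genes both Arid1a/b DKO libraries lay above both Arid1a KO libraries, against 32.9% of all genes. The largest rises were those of Melk at 2.83 (SE 0.56, adjusted p 0.00602), Ube2c at 2.36 (SE 0.59, adjusted p 0.017), Plk1 at 2.16 (SE 0.70, adjusted p 0.049) and Prc1, which bundles the central spindle, at 1.99 (SE 0.55, adjusted p 0.0263) on the log2 scale. Mki67, at 1.64 (SE 0.57, adjusted p 0.0615), and Foxm1, at 1.58 (SE 0.54, adjusted p 0.0599), missed the threshold. Ncapg alone had a negative log2 fold change, -0.87 (SE 0.58, adjusted p 0.305). The count was 26 by DESeq2, 33 without the filter on low counts and 5 in a fit of the 4 libraries alone. This comparison and the one with WT share the Arid1a/b DKO libraries.

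Both counts rest on few libraries. Without replicate 1 of the WT livers at 9 days 0 genes were called against WT, and without replicate 2 of the Arid1a/b DKO livers 1 gene was called. In a fit of the 4 libraries alone 11 were called against WT. Against Arid1a KO livers, 22 genes were called without replicate 1 of the Arid1a/b DKO livers, 1 without its replicate 2, 1 without replicate 1 of the Arid1a KO livers and 0 without its replicate 2. Cell type markers were also called: 9 of 12 stellate cell and fibroblast markers, 3 of 14 macrophage markers and 2 of 10 endothelial markers rose against WT, and 7 of 12 hepatocyte markers fell. Of all genes tested, 12.6% were called higher and 13.8% lower in that comparison. The stellate cell and fibroblast markers summed to 2442 and 1169 CPM in Arid1a/b DKO livers, 459.8 and 451 CPM in Arid1a KO livers and 282 and 367 CPM in WT livers. Col3a1 led that list and Lox was at 0 in 1 WT library. The macrophage markers summed to 3709 and 2089 CPM in Arid1a/b DKO livers, 1116 and 2379 CPM in Arid1a KO livers and 916 and 1731 CPM in WT livers, with none at 0 in these libraries. Of 10 cholangiocyte markers 2 rose, Spp1 and Epcam, and 1 fell. Their sum, mostly Spp1, was 439.8 and 172 CPM in Arid1a/b DKO livers, 106 and 97.1 CPM in Arid1a KO livers and 80.1 and 63.8 CPM in WT livers. Within the Arid1a/b DKO livers, replicate 1 had the higher sums of these 3 marker lists and replicate 2 the higher level of all 38 mitosis genes. The part of these cells in the result was not tested.

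**Figure D2:**
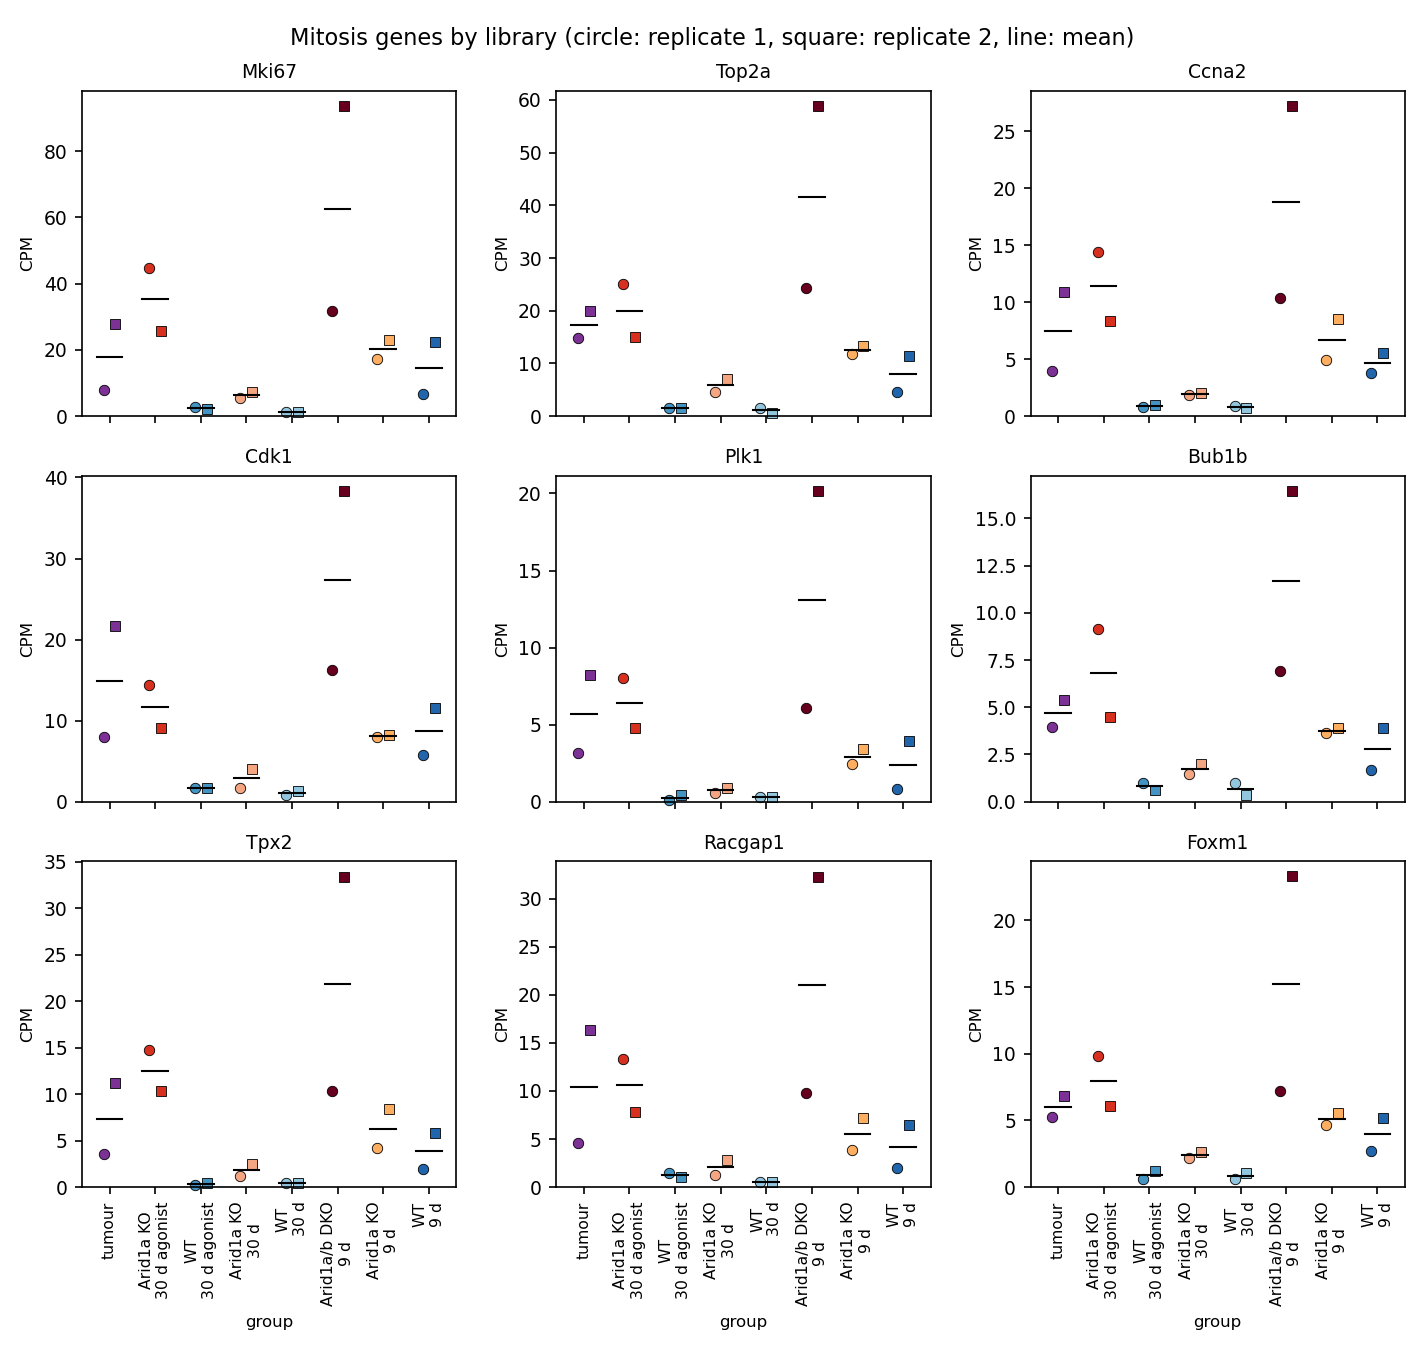
CPM of 9 of the 38 genes in each of the 16 libraries (points, replicates 1 and 2 of each group), on a linear axis. For Mki67, Top2a, Ccna2, Cdk1, Plk1, Bub1b, Tpx2, Racgap1 and Foxm1 alike, the agonist-treated Arid1a KO and Arid1a/b DKO livers stand above the WT livers of the same day.

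Loss of Arid1a alone at 9 days gave no called gene among the 38, where 0.566% of all genes tested were called in either direction. By edgeR's quasi-likelihood test 1 gene had an unadjusted p under 0.05, and DESeq2 called 1. The median log2 fold change against WT was 0.39, with 32 of 38 positive. In 5 genes both Arid1a KO libraries lay above both WT libraries, against 22.7% of all genes. The largest log2 fold change was that of Ncapg, 3.02 (SE 0.64, adjusted p 0.0723), and the smallest that of Spc25, -0.24 (SE 0.40, adjusted p 0.923). Mki67 stood at 0.45 (SE 0.56, adjusted p 0.887), with its WT libraries spread wider than the difference between the groups. The median depends on which WT library is kept: it was -0.07, with 15 genes positive, without replicate 1 and 1.19, with 37 positive, without replicate 2 of the WT livers.

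At 30 days, 1 of the 38 genes rose in Arid1a KO livers against WT livers, where 0.286% of all genes were called higher and 0.23% lower, and that gene was Ncapg. Their median log2 fold change was 1.53 with 37 of 38 positive, and 18 genes had an unadjusted p under 0.05. In 31 genes both Arid1a KO libraries lay above both WT libraries, against 17.8% of all genes. Mki67 had 5.37 and 7.33 CPM in Arid1a KO livers and 1.25 and 1.14 CPM in WT livers. Top2a had 4.57 and 7.08 CPM in Arid1a KO livers and 1.63 and 0.5902 CPM in WT livers. The groups did not overlap for either gene, but neither was called: the log2 fold change was 2.44 (SE 0.68, adjusted p 0.191) for Mki67 and 2.53 (SE 0.63, adjusted p 0.14) for Top2a. Nuf2, a subunit of the kinetochore complex that holds microtubules, came next to Ncapg at 2.98 (SE 0.66, adjusted p 0.0979), with 0.7998 and 1.13 CPM in Arid1a KO livers and 0.0959 and 0.136 CPM in WT livers. These levels are near the detection limit, as 17 genes had under 10 reads in replicate 1 of the Arid1a KO livers and 24 and 17 in the WT libraries. Pbk, a kinase of mitotic cells, had 30 reads over the Arid1a KO livers and 3 over the WT livers, a ratio per library size of 8.97 (95% exact binomial interval 2.79 to 45.95, counting error only). With replicate 2 alone in both groups the median was 2.29 and 0 genes were called. Without the filter on low counts 15 genes were called, and DESeq2 called 3. Ncapg lost its call without replicate 2 of the Arid1a KO livers and without either WT library, when 0 of the 38 genes were called, and kept it without replicate 1 of the Arid1a KO livers.

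The agonist was given to WT and to Arid1a KO mice, and the comparison asks whether these messages respond in each. In WT livers 0 of the 38 genes were called by edgeR's quasi-likelihood test, where 0.028% of all genes were called, 2 had an unadjusted p under 0.05, and DESeq2 called 0. Across the 38 genes the median log2 fold change was 0.12, with 22 of 38 positive. In 9 genes both agonist libraries lay above both DMSO libraries and in 9 genes below, against 14.2% and 14.1% of all genes. The extremes were Ect2 at 2.08 (SE 0.62, adjusted p 0.629) and Spc25 at -1.55 (SE 0.45, adjusted p 0.616). Mki67 had 2.901 and 2.04 CPM in agonist-treated WT livers and 1.25 and 1.14 CPM in DMSO-treated WT livers, with both agonist libraries above both DMSO libraries. Cyp2b10 stood at 1888 and 1835 CPM in agonist-treated Arid1a KO livers and 2130 and 2044 CPM in agonist-treated WT livers, above every DMSO-treated library.

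In Arid1a KO livers with the agonist, 1 of the 38 genes rose against DMSO-treated Arid1a KO livers, where 0.55% of all genes were called higher and 0.32% lower, and 34 had an unadjusted p under 0.05. That gene was Ccna2, with 14.4 and 8.38 CPM in agonist-treated and 1.83 and 2.04 CPM in DMSO-treated Arid1a KO livers (log2 fold change 2.54, SE 0.50, adjusted p 0.046). Over all 38 genes the median log2 fold change was 2.12, with 37 of 38 positive. In 37 genes both agonist libraries lay above both DMSO libraries, against 20.2% of all genes. Ccnb1 had 8.99 and 5.36 CPM in agonist-treated and 0.343 and 0.7295 CPM in DMSO-treated Arid1a KO livers, the largest log2 fold change of the 38 at 3.60 (SE 0.88, adjusted p 0.103). Hmmr, a spindle-binding protein, followed at 3.42 (SE 0.72, adjusted p 0.0606), and Mki67 stood at 2.45 (SE 0.60, adjusted p 0.101). None of the 38 except Ccna2 passed the threshold in edgeR's test as fitted, but the count depends on the method. DESeq2 called 24, edgeR without the filter on low counts 30 and edgeR with a replicate block 7. The shares of all genes called in those fits are not given here. Ncapg was the only gene with a negative value, -0.39 (SE 0.58, adjusted p 0.848). The call of Ccna2 was lost without any 1 of the 4 libraries, and 0 genes were called with replicate 2 alone of the DMSO-treated livers, where the median was 1.92.

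Among agonist-treated livers, 33 of the 38 genes rose in Arid1a KO against WT livers and 0 fell, where 3.05% of all genes were called higher and 1.91% lower. The median log2 fold change was 3.67, with 38 of 38 positive. All 38 genes had both Arid1a KO libraries above both WT libraries, against 26.1% of all genes. By role, 6 of 6 cyclins, Cdk1 and anaphase-promoting complex partners, 5 of 5 mitotic kinases, 3 of 3 checkpoint kinases, 5 of 7 centromere and kinetochore genes, 8 of 9 spindle genes, 3 of 4 chromosome structure genes, 2 of 3 cytokinesis genes and Foxm1 rose. Ncaph, Kif23, Ect2, Cenpa and Birc5 were not called.

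Mki67 had 44.9 and 25.7 CPM in agonist-treated Arid1a KO livers and 2.901 and 2.04 CPM in agonist-treated WT livers (log2 fold change 3.88, SE 0.66, adjusted p 0.0104). Top2a had 25.01 and 15 CPM in the Arid1a KO and 1.57 and 1.52 CPM in the WT livers (log2 fold change 3.69, SE 0.61, adjusted p 0.0099). The lower Arid1a KO library of each gene was several times the higher WT library. Cdk1 had 14.3 and 9.04 CPM in the Arid1a KO and 1.69 and 1.72 CPM in the WT livers, with log2 fold change 2.77, SE 0.54, adjusted p 0.019. Its DMSO-treated counterparts stood at 1.71 and 4.01 CPM in Arid1a KO livers and 0.863 and 1.32 CPM in WT livers, so that both agonist-treated Arid1a KO libraries lay above the other 6 libraries of 30 days. Plk1 had 8.01 and 4.8 CPM in agonist-treated Arid1a KO livers, 0.121 and 0.3998 CPM in agonist-treated WT livers, 0.571 and 0.875 CPM in DMSO-treated Arid1a KO livers and 0.288 and 0.318 CPM in DMSO-treated WT livers. It rose between the agonist-treated groups (log2 fold change 4.36, SE 0.87, adjusted p 0.0199).

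Cdc20 had 33.7 and 24.3 CPM in agonist-treated Arid1a KO livers, 0.725 and 0.5597 CPM in agonist-treated WT livers, 2.17 and 4.596 CPM in DMSO-treated Arid1a KO livers and 0.767 and 0.636 CPM in DMSO-treated WT livers. Its log2 fold change between agonist-treated groups was 5.54 (SE 1.12, adjusted p 0.0204). Larger fitted values rest on few WT reads. Cenpf, a kinetochore protein of late G2, had 14.4 and 6.36 CPM in agonist-treated Arid1a KO and 0 and 0.1599 CPM in agonist-treated WT livers (log2 fold change 6.44, SE 1.26, adjusted p 0.0187). Hmmr had 14.5 and 9.77 CPM in agonist-treated Arid1a KO and 0 and 0.1999 CPM in agonist-treated WT livers (log2 fold change 6.37, SE 0.92, adjusted p 0.00614). Ccnb1 had 290 reads over the Arid1a KO libraries and 2 over the WT libraries, a ratio per library size of 109 (95% exact binomial interval 29.8 to 901, counting error only). Cenpf, Hmmr and Ccnb1 were at 0 in the shallower WT library, which held under 10 reads for 27 of the 38 genes, so their fitted fold changes depend on the prior count.

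Ube2c had 10.1 and 6.88 CPM in agonist-treated Arid1a KO livers, 0.483 and 0.3598 CPM in agonist-treated WT livers, 0.457 and 1.64 CPM in DMSO-treated Arid1a KO livers and 0.767 and 0.5902 CPM in DMSO-treated WT livers. Aurkb had 4.99 and 3.54 CPM in agonist-treated Arid1a KO livers, 0.363 and 0.3998 CPM in agonist-treated WT livers, 1.03 and 1.897 CPM in DMSO-treated Arid1a KO livers and 0.479 and 0.318 CPM in DMSO-treated WT livers. Bub1b had 9.13 and 4.47 CPM in agonist-treated Arid1a KO livers, 0.967 and 0.6397 CPM in agonist-treated WT livers, 1.49 and 2.01 CPM in DMSO-treated Arid1a KO livers and 0.959 and 0.363 CPM in DMSO-treated WT livers. In all 3 genes the agonist-treated Arid1a KO libraries stood above the other 6 libraries of 30 days. Birc5 had 9.13 and 10.3 CPM in agonist-treated Arid1a KO livers, 0.604 and 3.48 CPM in agonist-treated WT livers, 1.26 and 7.22 CPM in DMSO-treated Arid1a KO livers and 1.63 and 3.04 CPM in DMSO-treated WT livers, with replicate 2 above replicate 1 in each of the 4 groups. Its log2 fold change between agonist-treated groups was 2.13 (SE 0.78, adjusted p 0.145), and it was not called.

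The last followed genes of this comparison act late in mitosis or upstream of the rest. Kif20a had 24.1 and 15.7 CPM in agonist-treated Arid1a KO livers, 0.242 and 1.08 CPM in agonist-treated WT livers, 2.17 and 3.03 CPM in DMSO-treated Arid1a KO livers and 2.11 and 1.45 CPM in DMSO-treated WT livers. Foxm1 had 9.84 and 6.09 CPM in agonist-treated Arid1a KO livers, 0.604 and 1.199 CPM in agonist-treated WT livers, 2.17 and 2.66 CPM in DMSO-treated Arid1a KO livers and 0.575 and 1.04 CPM in DMSO-treated WT livers. Both agonist-treated Arid1a KO libraries were the highest of 30 days for both genes, and Foxm1 was called between the agonist-treated groups (log2 fold change 3.04, SE 0.62, adjusted p 0.0209). Cenpa had 20.6 and 15.99 CPM in agonist-treated Arid1a KO livers, 7.86 and 8.72 CPM in agonist-treated WT livers, 11.9 and 14.2 CPM in DMSO-treated Arid1a KO livers and 8.82 and 11.3 CPM in DMSO-treated WT livers. Its log2 fold change of 1.14 (SE 0.37, adjusted p 0.106) between the agonist-treated groups was the smallest of the 38 genes.

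The count of 33 became 0 without replicate 2 of the agonist-treated WT livers, 5 without their replicate 1 and 7 without replicate 1 of the agonist-treated Arid1a KO livers. Of the cell type lists, 2 of 12 stellate cell and fibroblast markers and 1 of 14 macrophage markers rose between the agonist-treated groups. Of all genes tested, 3.05% were called higher there. The stellate cell and fibroblast markers summed to 969 and 520.5 CPM in Arid1a KO and 282 and 291 CPM in WT livers, with none at 0, and the macrophage markers to 1652 and 999.9 CPM in Arid1a KO and 733 and 562 CPM in WT livers. Of 10 cholangiocyte markers Spp1 alone was called, higher in Arid1a KO livers. The sum of that list, mostly Spp1, was 365 and 251 CPM in Arid1a KO and 73.98 and 60.5 CPM in WT livers. Their part in the result was not tested. Whether the agonist effect differs between genotypes was asked by the interaction term, for which 0 of the 38 genes were called by edgeR's quasi-likelihood test, where 0.00561% of all genes were called, 14 had an unadjusted p under 0.05, and DESeq2 called 2. Without the filter on low counts edgeR called 14. The median interaction was 1.66 on the log2 scale, with 37 of 38 positive.

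**Figure D3:**
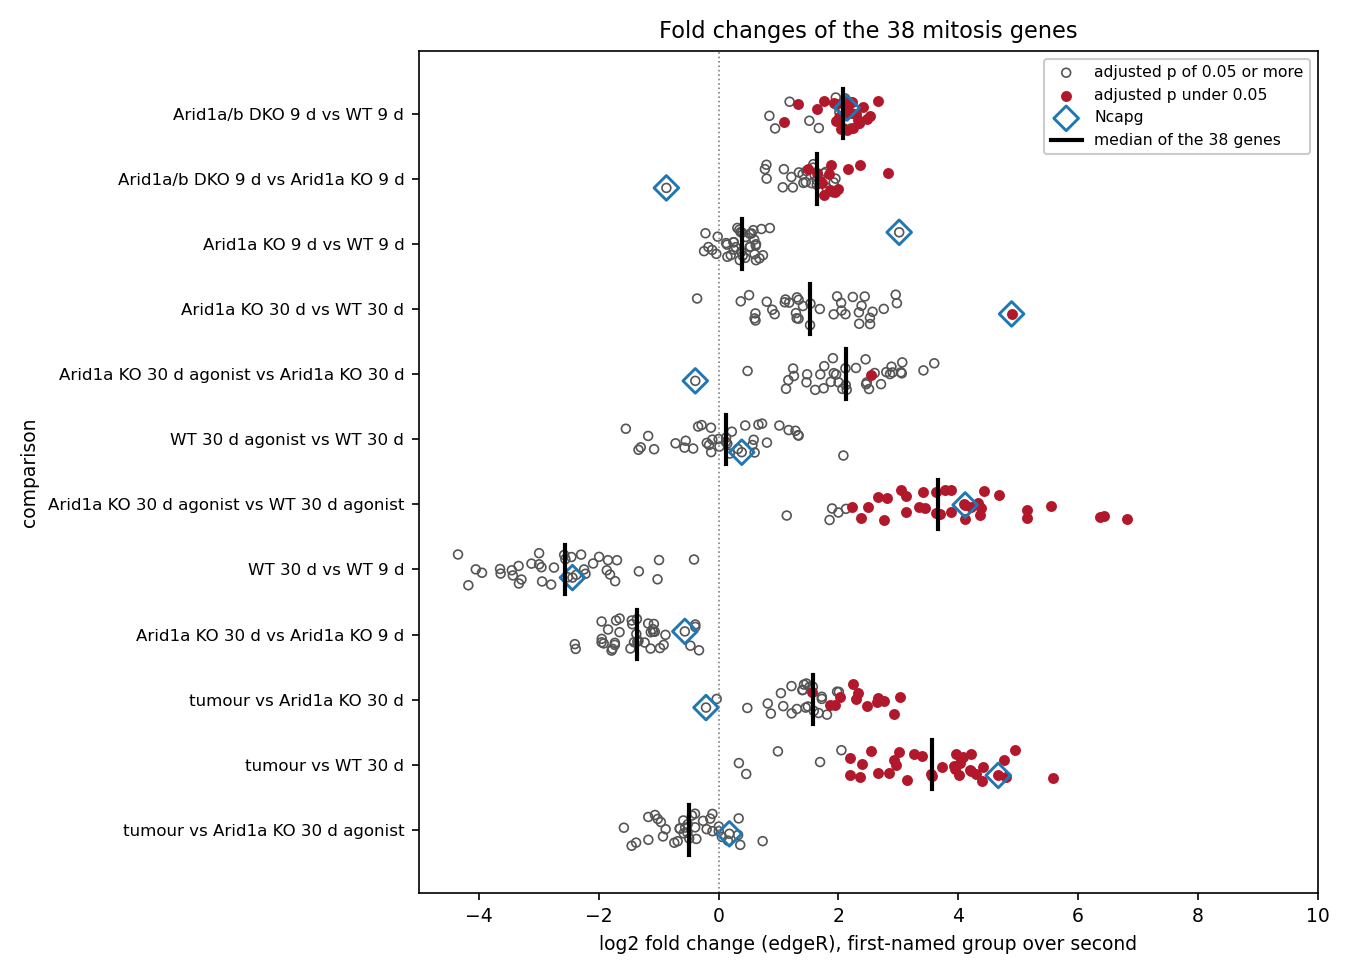
Log2 fold change of each of the 38 genes (points) in 12 comparisons of groups, with called genes in red, Ncapg as a blue diamond and the median of the 38 genes as a black bar. The medians are 2.08 for Arid1a/b DKO against WT at 9 days, 3.67 for Arid1a KO against WT with agonist and 3.56 for tumours against WT at 30 days, and Ncapg stands apart from the other 37 genes in Arid1a KO against WT at 9 and at 30 days.

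The later time point had lower levels of these messages than the earlier one in both genotypes, though no gene was called. Between WT livers at 30 and at 9 days, 0 of 38 genes were called by edgeR's quasi-likelihood test, where 0.0224% of all genes were called, 34 had an unadjusted p under 0.05, DESeq2 called 20 and edgeR without the filter on low counts 34. For the 38 genes the median log2 fold change was -2.57, with 38 of 38 negative. In 36 genes both 30-day libraries lay below both 9-day libraries, against 20.6% of all genes. Nuf2 had the smallest adjusted p (log2 fold change -3.95, SE 0.63, adjusted p 0.0873), and the values ran from -4.35 for Hmmr to -0.41 for Cenpa, with Mki67 at -3.65. In Arid1a KO livers 0 of 38 genes were called between the same times, where 0.0112% of all genes were called, 19 had an unadjusted p under 0.05, DESeq2 called 0 and edgeR without the filter on low counts 16. The median was -1.37 with 38 of 38 negative, and 36 genes did not overlap, against 18.4% of all genes. Values ran from -2.40 for Hmmr to -0.33 for Cenpa, with Ncapg at -0.56. Markers of immune cells had mostly negative values as well, with 0 called in either list: 14 of 14 macrophage markers had a negative log2 fold change in WT and 12 of 14 in Arid1a KO livers, and 8 of 9 tested neutrophil and granulocyte precursor markers in each genotype. The macrophage markers summed to 693 and 885 CPM at 30 days and 1116 and 2379 CPM at 9 days in Arid1a KO livers, and to 680.4 and 230.3 CPM at 30 days and 916 and 1731 CPM at 9 days in WT livers. The neutrophil and granulocyte precursor markers summed to 23.6 and 51.9 CPM at 30 days and 37.2 and 28.8 CPM at 9 days in Arid1a KO livers, and to 17.6 and 20.8 CPM at 30 days and 59.1 and 78.2 CPM at 9 days in WT livers. Cebpe, with 193 and 1343 reads, made up most of that sum in Arid1a KO livers at 30 days. Prtn3, with 501 and 1783 reads, made up most of it in WT livers at 9 days. These sums therefore follow single genes more than the whole list. At 30 days Ly6g, Mpo, Ngp and Camp were each at 0 in at least 1 library of each genotype. The part of these cells in the result was not tested. With replicate 2 alone of the 30-day livers the medians were -2.91 in WT and -1.07 in Arid1a KO livers. For the difference between genotypes in this time course 0 of 38 genes were called by edgeR's quasi-likelihood test and 0 by DESeq2, where 0% of all genes were called, 6 of the 38 had an unadjusted p under 0.05, and the median was 1.16.

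In the tumours, 33 of the 38 genes rose against WT livers at 30 days and 0 fell, where 16.3% of all genes were called higher and 13.8% lower. Taken over the 38 genes, the median log2 fold change was 3.56, with 38 of 38 positive and 36 genes without overlap, against 31.7% of all genes. All members of 5 role groups rose, namely the 6 cyclins, Cdk1 and their partners, the 3 checkpoint kinases, the 4 chromosome structure genes, the 3 cytokinesis genes and Foxm1. Spc25, Aurka, Cenpa, Kif20a and Kif11 were not called. The result depends on which WT livers are used, since the labels give the tumours no time. Against WT livers at 9 days, whose summed level of 94.28 and 228 CPM overlapped the 157.9 and 350 CPM of the tumours, 1 of the 38 genes was called, and the median log2 fold change was 0.68 with 34 of 38 positive. The share of all genes called against those 9-day livers is not given here. Top2a had 14.8 and 19.9 CPM in tumours and rose against WT livers at 30 days (log2 fold change 4.07, SE 0.62, adjusted p 0.000754). Mki67 had 7.83 and 27.8 CPM in tumours (log2 fold change 3.93, SE 0.78, adjusted p 0.00328), a wider gap between replicates than for Top2a. Cdk1 had 7.94 and 21.7 CPM in tumours, Ccna2 3.97 and 10.9 CPM and Ccnb1 2.84 and 6.57 CPM.

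Ccnb1 rose against WT livers by 4.94 (SE 1.05, adjusted p 0.0047) and Kif2c, a motor that takes microtubules apart at centromeres, by 4.80 (SE 0.95, adjusted p 0.00316) on the log2 scale. Pbk had 1.59 and 7.58 CPM in tumours. With 164 reads over the tumours and 3 over the WT livers, its ratio per library size was 62.0 (95% exact binomial interval 20.9 to 304, counting error only). Cenpa had 5.56 and 19.6 CPM in tumours, on both sides of its WT values, and the smallest log2 fold change of 0.34 (SE 0.50, adjusted p 0.638). Of the other followed genes, Cdc20 had 6.01 and 16.02 CPM in tumours, Ube2c 4.31 and 11.3 CPM, Plk1 3.18 and 8.24 CPM and Aurkb 2.04 and 4.09 CPM. Bub1b had 3.97 and 5.41 CPM in tumours, Birc5 8.05 and 16.3 CPM, Kif20a 4.31 and 10.01 CPM and Foxm1 5.22 and 6.82 CPM. For each of these 8 genes replicate 2 had the higher level.

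Against Arid1a KO livers at 30 days, 13 of the 38 genes rose in tumours and 0 fell, where 12.9% of all genes were called higher and 12.2% lower. Here the median log2 fold change was 1.58, with 36 of 38 positive and 33 genes without overlap, against 27.6% of all genes. Of the cyclins, Cdk1 and their partners 5 of 6 rose, of the mitotic kinases 2 of 5 and of the spindle genes 4 of 9. The largest rises were those of Ccnb1 at 3.03 (SE 0.89, adjusted p 0.0274), Plk1 at 2.93 (SE 0.81, adjusted p 0.0213), Ube2c at 2.77 (SE 0.68, adjusted p 0.0126) and Kif4, a motor of chromosome arms, at 2.66 (SE 0.71, adjusted p 0.0186) on the log2 scale. Kif4 had 8.85 and 4.902 CPM in tumours and 0.457 and 1.53 CPM in Arid1a KO livers, and was among the 2 genes with the higher tumour level in replicate 1. Mki67 stood at 1.49 (SE 0.67, adjusted p 0.123) and was not called. Against agonist-treated Arid1a KO livers 0 of the 38 genes were called by edgeR's quasi-likelihood test, where 20.1% of all genes were called in either direction, 1 had an unadjusted p under 0.05, and DESeq2 called 1. The median was -0.50 with 29 of 38 negative, and values ran from -1.58 for Ect2 to 0.74 for Kif4.

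The count against WT livers was 15 without replicate 2 of the WT livers. The count against Arid1a KO livers was 0 without replicate 1 of the Arid1a KO livers, 4 without their replicate 2, 2 without replicate 2 of the tumours, 0 in a fit of the 4 libraries alone and 26 without the filter on low counts. With replicate 2 alone of the 30-day livers, 22 genes were called against WT livers with a median of 3.57, and 0 against Arid1a KO livers with a median of 1.24. Between tumours and Arid1a KO livers, 5 of 14 macrophage markers were called lower and 1 higher, and 4 of 10 endothelial markers were called lower. The macrophage list did not move as a whole. Cd68 had 1867 and 2594 reads in tumours and 70 and 644 reads in Arid1a KO livers. Each tumour library was shallower than the same-numbered Arid1a KO library. Of all genes tested, 12.2% were called lower and 12.9% higher in that comparison. The macrophage markers summed to 579 and 452 CPM in tumours and 693 and 885 CPM in Arid1a KO livers, with Timd4 at 0 in 1 tumour library, and the endothelial markers to 225 and 148 CPM in tumours and 443 and 332 CPM in Arid1a KO livers.

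Ncapg, which encodes the G subunit of condensin I, the ring complex that compacts mitotic chromosomes, followed another pattern from the other 37 genes. It lies on the plus strand of chromosome 5 at chr5:45669919-45700546 (GRCm38). Its level was 6.92 and 10.8 CPM in tumours, 5.62 and 9.997 CPM in agonist-treated Arid1a KO livers, 0.846 and 0.2399 CPM in agonist-treated WT livers, 8.46 and 12 CPM in Arid1a KO livers at 30 days and 0.671 and 0.136 CPM in WT livers at 30 days. At 9 days it was 4.996 and 11.5 CPM in Arid1a/b DKO livers, 18.4 and 12.1 CPM in Arid1a KO livers and 1.45 and 2.23 CPM in WT livers. Each of the 10 libraries without Arid1a exceeded each of the 6 WT libraries, which was so for no other of the 38 genes and, in this direction, for 150 of 18193 genes tested (0.824%).

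Ncapg rose against WT livers by 2.14 (SE 0.62, adjusted p 0.0275) in Arid1a/b DKO livers, 4.89 (SE 0.78, adjusted p 0.0235) in Arid1a KO livers at 30 days, 4.12 (SE 0.75, adjusted p 0.0146) in agonist-treated Arid1a KO livers and 4.67 (SE 0.77, adjusted p 0.00115) in tumours on the log2 scale. In Arid1a KO livers at 9 days its value was 3.02 (SE 0.64, adjusted p 0.0723), past the threshold only by DESeq2, without the filter on low counts or in a fit of the 4 libraries alone. Its share of the summed level of the 38 genes was 11.3% and 10.6% in Arid1a KO livers at 30 days and 9.46% and 4.72% in those at 9 days. The share was 4.38% and 3.07% in tumours, 1.24% and 3.39% in agonist-treated Arid1a KO livers, 1.48% and 1.29% in Arid1a/b DKO livers and 0.342% to 2.07% in WT livers. Its partner Ncaph, another subunit of condensin I, had 1.03 and 2.08 CPM in Arid1a KO livers and 0.959 and 1.14 CPM in WT livers at 30 days, or 0.62 (SE 0.59, adjusted p 0.898) on the log2 scale.

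Genes beside Ncapg were looked at after its values had been seen. Fam184b, which starts 30.3 kilobases upstream on the other strand, had 1.46 and 2.597 CPM in Arid1a/b DKO livers, 3.33 and 3.65 CPM in Arid1a KO livers and 0.643 and 0.286 CPM in WT livers at 9 days. It rose in Arid1a/b DKO livers against WT (log2 fold change 2.23, SE 0.74, adjusted p 0.047). At 30 days it had 2.74 and 3.68 CPM in Arid1a KO livers and 1.34 and 0.182 CPM in WT livers, and its log2 fold change of 2.25 had an adjusted p of 0.31. Lcorl, which lies downstream on the other strand, shares 944 exon bases with Ncapg (13.4% of the exon length of Ncapg). Its log2 fold change in Arid1a/b DKO livers against WT was -0.67 (adjusted p 0.036), the opposite direction to Ncapg.

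**Figure D4:**
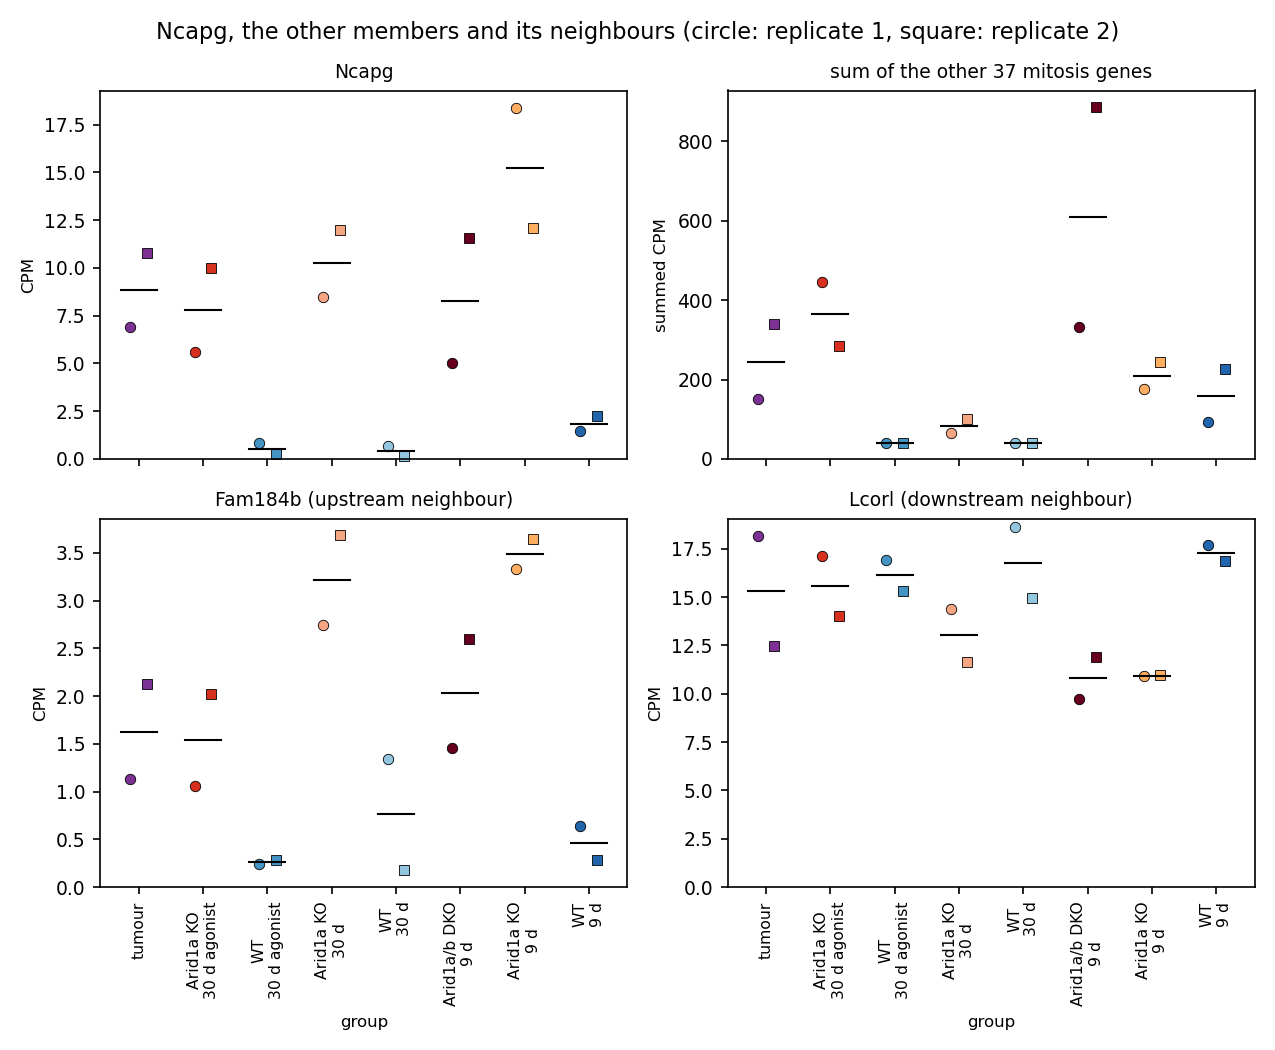
CPM per library (points, linear axes) of Ncapg, of the sum of the other 37 genes, and of its neighbours Fam184b and Lcorl, by group. All 10 libraries without Arid1a lie above all 6 WT libraries for Ncapg, while the sum of the other 37 genes in Arid1a KO livers at 9 days overlaps that of WT livers.

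In a second list, of 88 other mitosis genes, more genes were called higher than lower in each comparison given here. In Arid1a/b DKO livers 43 rose and 3 fell against WT, where 12.6% of all genes were called higher and 13.8% lower. Against Arid1a KO livers, 16 rose and 1 fell in Arid1a/b DKO livers, where 9.92% of all genes were called higher and 12.1% lower. With the agonist, 42 rose and 0 fell in Arid1a KO against WT livers, where 3.05% were called higher and 1.91% lower. In tumours 50 rose and 3 fell against WT livers, where 16.3% were called higher and 13.8% lower. Between tumours and Arid1a KO livers 17 rose and 3 fell, where 12.9% were called higher and 12.2% lower. Ccnf, whose product is a ubiquitin ligase subunit that shares the cyclin fold, was among those that fell, with 6.86 and 14.2 CPM in Arid1a/b DKO livers and 32.7 and 18.5 CPM in WT livers (log2 fold change -1.27, SE 0.36, adjusted p 0.027).

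Of 46 S phase genes, 4 rose and 2 fell in Arid1a/b DKO livers against WT, where 12.6% of all genes were called higher. In agonist-treated Arid1a KO against WT livers 12 rose and 1 fell, where 3.05% of all genes were called higher, and in tumours against WT livers at 30 days 18 rose and 2 fell, where 16.3% were called higher. The 4 that rose in Arid1a/b DKO livers were Cdc7, a kinase that fires replication origins (log2 fold change 1.89, SE 0.40, adjusted p 0.0073), Clspn, a replication checkpoint mediator (2.75, SE 0.62, adjusted p 0.0091), Uhrf1, which maintains DNA methylation at replication (2.42, SE 0.72, adjusted p 0.031), and Pola1, the catalytic subunit of DNA polymerase alpha (1.12, SE 0.34, adjusted p 0.032). Uhrf1 had 35.2 and 49.9 CPM in Arid1a/b DKO livers and 8.69 and 7.32 CPM in WT livers, and Clspn had 6.65 and 11.2 CPM in Arid1a/b DKO livers and 1.13 and 1.496 CPM in WT livers. Mcm5, a subunit of the replicative helicase, had 26.01 and 42.8 CPM in Arid1a/b DKO livers and 21.6 and 16.04 CPM in WT livers, with a log2 fold change of 0.88 (SE 0.51, adjusted p 0.23). Rrm2, which makes deoxynucleotides, had 29.9 and 38.6 CPM in Arid1a/b DKO livers and 30.5 and 22.4 CPM in WT livers, with a log2 fold change of 0.38 (SE 0.58, adjusted p 0.66). Mcm10, a factor of replication start, fell, with 8.77 and 11.7 CPM in Arid1a/b DKO livers and 113 and 137 CPM in WT livers (log2 fold change -3.60, SE 0.35, adjusted p 0.00011). Mybl2, a transcription factor that joins MuvB complexes in S phase, stayed between 0.397 and 2.95 CPM in all 16 libraries.

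Regulators of the earlier cycle did not follow the 38 genes in every group. Ccnd1, the G1 cyclin of liver regeneration, had 78.4 and 27.8 CPM in Arid1a/b DKO livers, 152 and 98.7 CPM in Arid1a KO livers and 73.1 and 145 CPM in WT livers at 9 days. It was called in agonist-treated Arid1a KO against WT livers, with 153 and 149.5 CPM in Arid1a KO and 18.5 and 25.5 CPM in WT livers (log2 fold change 2.78, SE 0.63, adjusted p 0.033). Cdkn1a, the p21 inhibitor of cyclin-dependent kinases, rose in 3 of the comparisons in which most of the 38 genes rose. It had 129 and 65.7 CPM in Arid1a/b DKO livers and 18.7 and 10.8 CPM in WT livers (log2 fold change 2.74, SE 0.71, adjusted p 0.018). With the agonist it had 139 and 69.2 CPM in Arid1a KO and 8.22 and 2.399 CPM in WT livers (log2 fold change 4.39, SE 0.79, adjusted p 0.014). In tumours it had 92.2 and 94.8 CPM, against 11.9 and 3.22 CPM in WT livers at 30 days (log2 fold change 3.67, SE 0.72, adjusted p 0.003). DMSO-treated Arid1a KO livers, where few of the 38 genes were called, also had more Cdkn1a than WT livers. It had 63.2 and 33.2 CPM in Arid1a KO livers at 9 days and 44.1 and 72.9 CPM in those at 30 days. Each library without Arid1a exceeded each WT library for Cdkn1a, as for Ncapg.

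E2f2, a transcription factor of the G1 to S step, was called in Arid1a KO against WT livers at both times. It had 18.96 and 24.3 CPM in Arid1a KO and 3.78 and 3.18 CPM in WT livers at 9 days (log2 fold change 2.64, SE 0.32, adjusted p 0.0075), and 7.88 and 10.98 CPM in Arid1a KO and 2.49 and 2.45 CPM in WT livers at 30 days (log2 fold change 1.94, SE 0.33, adjusted p 0.031). Wee1, the kinase that restrains Cdk1 and a clock-controlled gene in liver, split replicates rather than groups, at 4.799 and 46.4 CPM in Arid1a KO and 2.01 and 47.6 CPM in WT livers at 30 days. Ccne1, the cyclin of the G1 to S step, was also higher in replicate 2 of all 8 groups, for example at 0.686 and 14.4 CPM in Arid1a KO and 1.15 and 5.99 CPM in WT livers at 30 days. The 38 mitosis genes did not split the 30-day WT livers in this way, with a summed level of 39.99 and 39.82 CPM in replicates 1 and 2.

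**Figure D5:**
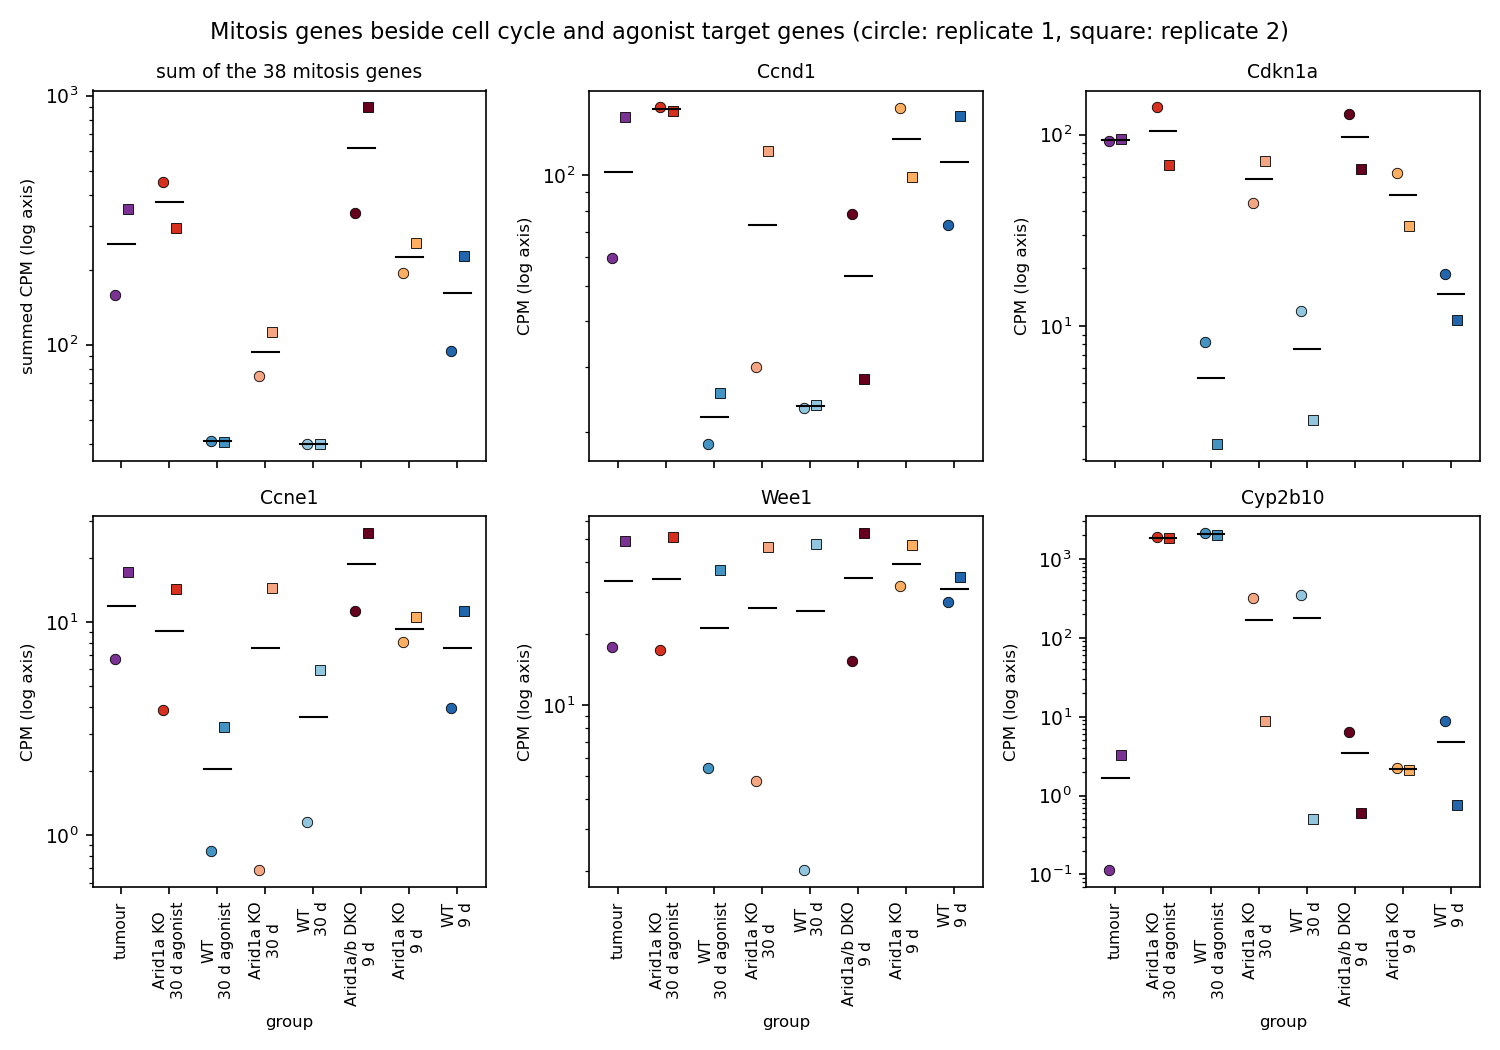
CPM per library (points, log axes) of the sum of the 38 genes and of Ccnd1, Cdkn1a, Ccne1, Wee1 and Cyp2b10, by group. Cdkn1a is higher in Arid1a/b DKO than in WT livers of 9 days and in Arid1a KO than in WT livers with the agonist, while Wee1 and Cyp2b10 separate the replicates of the 30-day DMSO-treated livers.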

How the data were processed

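Polyadenylated RNA was sequenced from TruSeq libraries, per the labels' protocols. Per the submitters' processing notes, fastp, STAR 2.7.3 and featureCounts were used with GRCm38.p6. No source used here gives the annotation release or the strand setting. The authors deposited whole-number counts of reads per gene. They also deposited normalized signal values, which are each library's counts times 1 constant (checked on the values) and were used only with limma.

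Samples were grouped by genotype, treatment and time as labelled. The counts entered quasi-likelihood F tests of edgeR 4.0.16 (R 4.3.3) after filterByExpr and TMM scaling: the 14 liver libraries together (17831 genes, 7 residual degrees of freedom, biological coefficient of variation 29.3%) and, for the 3 tumour comparisons, all 16 libraries (18193 genes, 8 residual degrees of freedom, 32.1%). P-values were adjusted by Benjamini-Hochberg over all genes tested in each of 14 comparisons, and a gene was called under 0.05. Each SE was derived from the fold change and its F value, as |log2 fold change|/√F, and CPM are TMM-scaled. With 2 libraries a group, p-values rest on the spread between replicate libraries, pooled over all groups of a fit and shared in part across genes. They do not measure the spread of the compared libraries alone.

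The 38 genes and the other lists were chosen with earlier results of these data known. Values in every library are given for 14 of them, and in each comparison the largest and smallest log2 fold changes and up to 4 of the largest called rises are named. Genes beside Ncapg, and the few others so described, were chosen after their values were seen. Exon overlaps and lengths come from GENCODE M21, which holds all 38 genes, and promoter windows from RefSeq. The alternatives tried were scaling by RLE, no filter on low counts, DESeq2 1.42.0, limma-trend (limma 3.58.1, pseudocount 1) on the deposited normalized values, a replicate block, other sets of libraries, the 9-day WT livers as the WT reference, and leaving out each library. Using replicate 2 alone of the 30-day DMSO-treated livers was added after seeing the data. The edgeR procedure was also tested on simulated data, drawn independently for each gene. Such data lack the shared differences between replicates seen here, so that test does not vouch for the numbers of called genes. Matplotlib 3.10.9 under Python 3.11.15 drew the figures.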

Additional observations from a re-analysis of the deposited data

Results flagged for a closer look

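In 9 of the 38 genes both agonist-treated Arid1a KO libraries lay above both DMSO-treated Arid1a KO libraries while both agonist-treated WT libraries lay below both DMSO-treated WT libraries. The difference between these log2 fold changes, Arid1a KO minus WT, was 4.90 for Ccnb1, 3.21 for Ccnb2, 3.58 for Ube2c, 1.71 for Aurka and 0.77 for Cenpa. It was 4.39 for Cenpf, 3.01 for Spc25, 4.08 for Kif20a and 2.48 for Kif4. By edgeR's interaction test their adjusted p ran from 0.24 for Spc25 to 1, so none of the 9 differences passed the threshold. Ccnb1 and Cenpf had 2 and 4 reads in the agonist-treated WT livers together, and their values depend on the prior count. Taken singly, 37 of the 38 genes lay above with the agonist in Arid1a KO livers, against 20.2% of all genes. In WT livers 9 lay below and 9 above with the agonist, against 14.1% and 14.2% of all genes. The 9 genes named here are those that lay below in WT livers. The share of all genes with this joint pattern was not computed. With 2 libraries in each group, no group was large enough to ask whether a single library stood apart.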

How the results depend on the processing

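RLE scaling kept every count of called genes within 1.5 times of its reported value. The 38 genes gave 532 log2 fold changes over the 14 comparisons, and of 6356 recomputed values 203 had the opposite sign, 0 of them where the reported value was called. Of 122 called values, 121 lost the call in at least 1 recomputation. Counts of called genes moved as follows, and the causes were not tested. The shares of all genes called under each setting are not given here. These counts therefore do not tell gains among the 38 genes from more calls among all genes.

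Without the low-count filter, 1 gene was called in Arid1a KO against WT at 9 days (reported 0), 15 at 30 days (reported 1), 33 in Arid1a/b DKO against Arid1a KO (13), 2 in WT with against without agonist (0), 30 in Arid1a KO with against without agonist (1), 34 in WT at 30 against 9 days (0), 16 in Arid1a KO at 30 against 9 days (0), 14 for the agonist interaction (0), 1 for the time interaction (0), 26 in tumours against Arid1a KO (13) and 4 in tumours against agonist-treated Arid1a KO (0). DESeq2 called 1 gene in Arid1a KO against WT at 9 days and 3 at 30 days, 26 in Arid1a/b DKO against Arid1a KO, 24 in Arid1a KO with against without agonist, 20 in WT at 30 against 9 days, 2 for the agonist interaction and 1 in tumours against agonist-treated Arid1a KO. Limma-trend called 2 in Arid1a KO against WT at 30 days, 3 in Arid1a KO with against without agonist and 2 in WT at 30 against 9 days. With only the 4 libraries compared, the counts were 1 in Arid1a KO against WT at 9 days, 0 at 30 days, 11 in Arid1a/b DKO against WT, 5 against Arid1a KO, 0 in Arid1a KO with against without agonist and 0 in tumours against Arid1a KO. With all 16 libraries 0 were called in Arid1a KO with against without agonist. With WT livers of 9 days as control, 1 was called for WT with agonist and 1 for tumours. With replicate 2 alone of the 30-day DMSO-treated livers 0 were called in Arid1a KO against WT, Arid1a KO with against without agonist and tumours against Arid1a KO.

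Leaving out each library gave 0 to 0 genes in Arid1a KO against WT at 9 days, 0 to 1 at 30 days, 0 to 30 in Arid1a/b DKO against WT, 0 to 22 against Arid1a KO, 0 to 0 in Arid1a KO with against without agonist, 0 to 28 in Arid1a KO against WT with agonist, 0 to 15 in tumours against Arid1a KO, 15 to 33 against WT and 0 to 2 against agonist-treated Arid1a KO. Among the 74 log2 fold changes printed for members of the 38, it turned the sign of 6, all uncalled, whose ranges were -0.16 to 1.59 for Mki67 and -0.57 to 0.021 for Spc25 in Arid1a KO against WT at 9 days, -0.10 to 0.996 for Ncaph at 30 days, -0.025 to 2.23 for Ccnb2 in Arid1a/b DKO against WT, -0.91 to 0.41 for Cenpa in WT at 30 against 9 days and -0.91 to 0.96 for Cenpa in tumours against WT. With WT livers of 9 days as control, the value for Cenpa in tumours was -0.068.

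The labels give the replicate numbers no meaning, and with 2 libraries a group the data cannot settle whether they pair the samples. Deviations of same-numbered libraries correlated above 0.1 in 12 of 28 pairs of groups (range -0.106 to 0.356), including 6 of the 6 pairs among the 30-day groups (0.168 to 0.356). With a replicate block, 7 genes were called in Arid1a KO with against without agonist, 30 in Arid1a/b DKO against WT, 19 against Arid1a KO, 33 in Arid1a KO against WT with agonist, 17 in tumours against Arid1a KO and 34 against WT. Depth limits the WT livers of 30 days, where 13 to 27 of the 38 genes had under 10 reads in a library.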
